A study of Mus musculus with 8 samples.

Results

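The genes described here are those that separated the 2 cell lines labelled CBE-/- from the 2 lines not so labelled. CBE stands for the CTCF-binding elements of IGCR1. A gene was kept when its values in the 4 CBE libraries lay all above or all below its values in the 4 libraries of the WT and Eµ-deleted lines, on log2(FPKM + 1), with genes on the sex chromosomes left out. FPKM, the authors' unit, is fragment counts scaled by transcript length and by the mapped reads of the library. The rule kept 1436 of 22821 autosomal genes (6.29%), 818 higher and 618 lower in the CBE lines.

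Poly(A) RNA-seq was run on total RNA of 4 mouse pro-B cell lines, with 2 libraries per line and 8 in all. All lines are labelled as 129SV, from bone marrow, and were grown without treatment. The WT line has the genotype label wild type, the lines CBE-/- (1) and CBE-/- (2), here CBE line 1 and CBE line 2, are labelled IGCR1-/-, and the Eµ-deleted line is labelled E<mu>-/-. Depth, inferred from the intervals given for each gene, was 31.3 to 49.5 M reads per library. This is an estimate, and it lies above the labelled target of 20 to 30 M reads. WT and the Eµ deletion are each represented by 1 line, so genotype and line cannot be told apart there, and the IGCR1 genotype rests on 2 lines. The sources used here give neither how the lines were derived nor whether libraries of 1 line are separate cultures, so the p-values reflect only library-to-library spread, which may be technical. In a bulk sample, fewer cells that express a gene and less RNA per cell cannot be told apart.

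In pro-B cells, early precursors of the B lineage, the RAG1 and RAG2 proteins join V, D and J segments of the immunoglobulin heavy chain (IgH) locus, a process named V(D)J recombination. Recombination begins in a centre around the J segments and the intronic enhancer Eµ. IGCR1, a control region that separates the D segments from the V segments, holds CTCF-binding elements that anchor chromatin loops and keep the nearest V segments from recombining out of order.

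The pro-B identity of the 8 libraries was checked first. Of 12 pro-B markers, 10 were at 1 FPKM or more in every library, among them Cd79a, Vpreb1 and Igll1. Kit was listed at 0 in all 8, and Rag1 was at 0.0427 and 0.0295 FPKM in WT, 5.83 and 7.53 in the Eµ-deleted line, 13.8 and 7.41 in CBE line 1, and 8.72 and 3.77 for CBE line 2. The summed level of the pro-B markers was 2942 to 3989 FPKM in the CBE libraries and 2747 to 3688 in the others, and 0 of the 12 were kept. Of the T cell markers, Cd3e, Cd4 and Cd8a were listed at 0 throughout. The 6 myeloid markers summed to 1.61 to 8.85 FPKM in the CBE libraries and 2.01 to 6.71 in the others, with Elane listed at 0 and Itgam kept as higher. The 3 NK markers summed to 0.410 to 1.09 FPKM against 0.620 to 2.45, with Ncr1 listed at 0. Nkg7 was the 1 NK marker kept, as lower, at 0 to 0.0217 FPKM in the CBE libraries against 0.0275 to 0.144 in the others, too low to be tested. The summed erythroid and stromal markers were under 0.25 FPKM in every library.

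Of the kept genes, 1029 reached 1 FPKM in 2 or more of 8 libraries and were tested, and 407 lay under that level. They were 10.1% of the 10146 autosomal genes tested, 600 higher (5.91%) and 429 lower (4.23%). A gene silent on 1 side entered only through the side where it was high, so these counts describe the tested genes and not all 1436. The direction split moved with the scaling: quantile normalization kept 497 higher and 611 lower, with 445 and 394 genes in common with the split above. The median difference between the CBE lines and the others over all tested genes was 0.02 on the log2 scale.

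Most kept genes were separated by a narrow margin. The gap, the distance between the nearest values of the CBE and the other libraries, had a median of 0.109 for the higher and 0.0901 for the lower genes on log2(FPKM + 1). It reached 1 in 51 higher and 14 lower genes and 2 in 13 higher and 3 lower genes. At the edge of the rule, Mndal was just inside with a gap of 3.63e-05, Ramp3 with 0.000152 and Ogfod1, a lower gene, with 0.000546. Bves, Fxyd2 and Snora2b lay just outside, each with libraries of both sides listed at 0.

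A limma joint test asked of every tested gene whether each CBE line differed from WT and from the Eµ-deleted line in the same direction. It takes the largest p of the 4 differences, adjusted over all 10479 tested genes with the Benjamini-Hochberg method. It called 98 genes (0.966% of autosomal genes tested), 76 higher (0.749%) and 22 lower (0.217%), and all 98 were kept genes. The rule and this test use the same differences, so the calls measure size against the spread between libraries and are not independent support for the kept list. Leaving out each of the 8 libraries in turn, 34 of the 98 stayed called every time, 26 higher and 8 lower. The counts fell to 34 to 43 higher calls without a WT, CBE line 2 or Eµ-deleted library and stayed at 64 and 68 without either library of CBE line 1. With a replicate block, the joint test called 92 higher and 34 lower genes.

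A wider limma contrast, the mean of the CBE lines minus the mean of WT and the Eµ-deleted line, called 1624 genes (16% of those tested), 941 higher (9.27%) and 683 lower (6.73%), and 2600 with a replicate block. It can be passed by a difference from 1 of the other lines alone, and 738 of its 1624 calls (45.4%) were kept genes. Without a WT or a CBE line 2 library it called 933 to 1024. With the 4 lines as replicates, 2 against 2, limma called 0 genes, with 500 (4.93%) at an unadjusted p under 0.05 and a smallest adjusted p of 0.0613. Log2 differences below are those of this mean contrast on log2(FPKM + 1), which understates changes of low genes, with their SE.

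**Figure D1:**
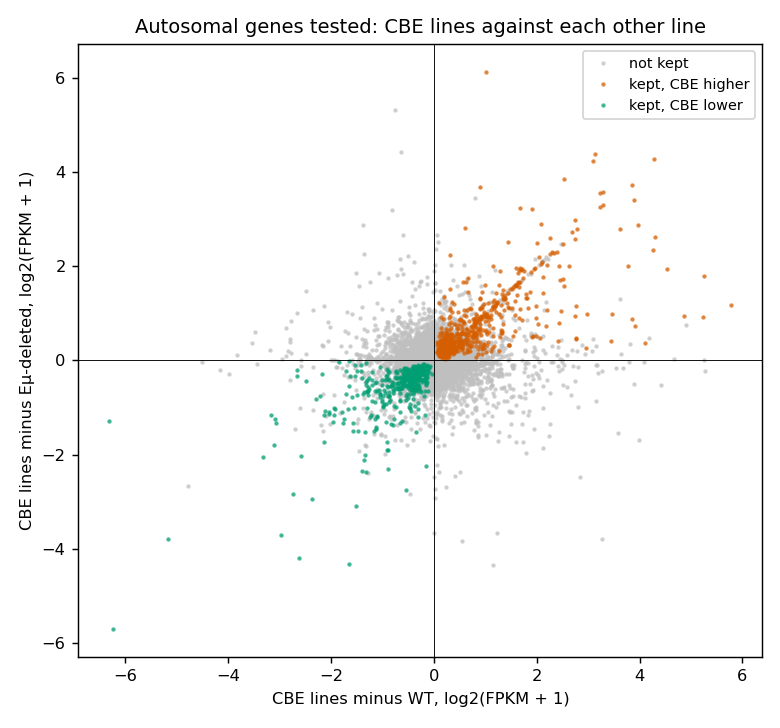
Each point is an autosomal gene tested, placed by the mean of the CBE lines minus WT (x axis) and minus the Eµ-deleted line (y axis), both as differences of log2(FPKM + 1). The 600 genes kept as higher are orange and lie in the upper right, the 429 kept as lower are green and lie in the lower left, and genes not kept are grey.

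In 21 genes the level was under 0.1 FPKM in all 4 WT and Eµ-deleted libraries and at 1 FPKM or more in all 4 CBE libraries. This group was chosen after its values were seen, from the values the joint test uses, so its adjusted p-values describe single genes and support nothing about the group. Eif5a2, Samd10, Fam134b and Airn were among those listed at 0 in all 4 other libraries. Cyp2c55 alone showed the opposite pattern.

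Eif5a2 and Cyp2c55 are shown with Kif16b and Gdpd3 by the 250 bases before their RefSeq start sites in GRCm38.p6, because these 4 genes had nearly no transcript on 1 side. Each is given 5′ to 3′ on the strand of the gene, with every CG dinucleotide in capitals, from chr3:28781027-28781276 (plus strand), chr2:142901465-142901714 (minus strand), chr7:126766164-126766413 (plus strand) and chr19:39006769-39007018 (plus strand).
Eif5a2: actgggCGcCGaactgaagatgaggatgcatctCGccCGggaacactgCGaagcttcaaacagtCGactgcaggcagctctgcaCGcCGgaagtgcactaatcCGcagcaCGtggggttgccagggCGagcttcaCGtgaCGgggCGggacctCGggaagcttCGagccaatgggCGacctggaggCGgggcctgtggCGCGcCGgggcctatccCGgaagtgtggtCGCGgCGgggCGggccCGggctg
Kif16b: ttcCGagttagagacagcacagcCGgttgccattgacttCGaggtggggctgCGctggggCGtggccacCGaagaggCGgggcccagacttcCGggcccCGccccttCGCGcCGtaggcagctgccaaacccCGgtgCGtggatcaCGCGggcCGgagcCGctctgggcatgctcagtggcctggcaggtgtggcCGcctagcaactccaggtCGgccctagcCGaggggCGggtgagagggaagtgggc
Gdpd3: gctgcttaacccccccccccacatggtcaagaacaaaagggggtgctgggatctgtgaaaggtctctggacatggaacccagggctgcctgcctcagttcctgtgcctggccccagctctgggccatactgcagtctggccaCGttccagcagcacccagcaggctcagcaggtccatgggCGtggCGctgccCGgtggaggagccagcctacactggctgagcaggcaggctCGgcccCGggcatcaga
Cyp2c55: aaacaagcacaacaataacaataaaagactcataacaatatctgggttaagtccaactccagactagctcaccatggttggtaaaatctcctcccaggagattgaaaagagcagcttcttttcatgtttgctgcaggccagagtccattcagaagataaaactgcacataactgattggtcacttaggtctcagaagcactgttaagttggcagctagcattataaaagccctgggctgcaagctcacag
The Eif5a2 window held 27 CG dinucleotides, and 8.56% of the 32851 windows of this length in the RefSeq table held as many or more. The Kif16b window held 22 (14.8% of windows held as many or more), the Gdpd3 window 6, which is the median of all windows, and the Cyp2c55 window 0. The 4 windows thus ranged from CG-rich to free of CG.

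Eif5a2 encodes a second form of the translation factor eIF5A, which carries the modified amino acid hypusine. It was listed at 0 and 0 FPKM in WT, 0 and 0 in the Eµ-deleted line, 3.02 and 2.67 in CBE line 1, and 3.01 and 3.0 for CBE line 2 (mm9 chromosome 3, 28680232 to 28697768). The 4 CBE libraries lay close together while all others were at 0 (limma joint test, adjusted p = 0.000230). Amd1, S-adenosylmethionine decarboxylase of polyamine synthesis, was at 0.00560 and 0.00913 FPKM in WT, 0.00846 and 0.00920 in the Eµ-deleted line, 1.84 and 2.54 in CBE line 1, and 2.45 and 4.51 for CBE line 2. Its libraries were also fully separated (adjusted p = 0.0230, limma), but the call was lost without either library of WT, the Eµ-deleted line or CBE line 1, with adjusted p up to 0.176.

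Kif16b, Ston1 and Rab32 were among the 21 genes. Kif16b, a kinesin that moves early endosomes, was at 0 and 0.00330 FPKM in WT, 0.00320 and 0 in the Eµ-deleted line, 4.99 and 5.50 in CBE line 1, and 2.80 and 2.99 for CBE line 2. Both CBE lines were high, and CBE line 2 had the lower values of the pair (joint test adjusted p = 0.000230, limma). Ston1, an adaptor of clathrin-coated vesicles, was at 0.0397 and 0 FPKM in WT, 0.0121 and 0.00636 in the Eµ-deleted line, 12.7 and 14.6 in CBE line 1, and 5.14 and 5.53 for CBE line 2. Its level in CBE line 1 was more than that in CBE line 2, with all other libraries under 0.04 FPKM (log2 difference 3.25 ± 0.07, limma joint adjusted p = 0.000147). Rab32, a small GTPase of lysosome-related organelles, was at 3.06 to 5.81 FPKM in the CBE libraries against 0 to 0.0955 in the others (log2 difference 2.35 ± 0.088, limma joint adjusted p = 0.000718).

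Fam73a and Tes were also in the group. Fam73a, also called Miga1 and known for its part in mitochondrial fusion, was at 0.00667 and 0.00698 FPKM in WT, 0.0203 and 0.0392 in the Eµ-deleted line, 5.40 and 6.16 in CBE line 1, and 3.65 and 4.03 for CBE line 2. CBE line 1 lay above CBE line 2 and both above the rest (log2 difference 2.49 ± 0.069, limma joint adjusted p = 0.000230). Tes, the LIM domain protein testin of focal adhesions, was at 0.0246 and 0 FPKM in WT, 0 and 0.00789 in the Eµ-deleted line, 10.3 and 5.07 in CBE line 1, and 12.1 and 9.59 for CBE line 2. The CBE lines overlapped each other, and the limma joint adjusted p of 0.00446 became 0.0507 without WT replicate 2.

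The pair Airn and Igf2r on mm9 chromosome 17 also belonged to the group. Airn is the antisense RNA that starts within Igf2r, the receptor for IGF2 and lysosomal enzymes, and the 2 genes overlap (12934176 to 13052750 and 12875271 to 12962572). Airn was listed at 0 and 0 FPKM in WT, 0 and 0 in the Eµ-deleted line, 1.23 and 2.13 in CBE line 1, and 2.46 and 1.83 for CBE line 2, and Igf2r at 0.0556 and 0.0774 FPKM in WT, 0.00770 and 0.0122 in the Eµ-deleted line, 3.07 and 1.57 in CBE line 1, and 1.17 and 1.29 for CBE line 2. Whether reads were counted by strand is not stated in the sources used here, so reads of the pair cannot be assigned with certainty. Both were high in the CBE libraries and near 0 in the others, and the limma joint adjusted p of 0.0189 for Airn was lost when either library of WT or the Eµ-deleted line or CBE line 2 replicate 1 was left out, with values up to 0.150. Igf2r was not called (limma joint adjusted p = 0.0993).

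**Figure D2:**
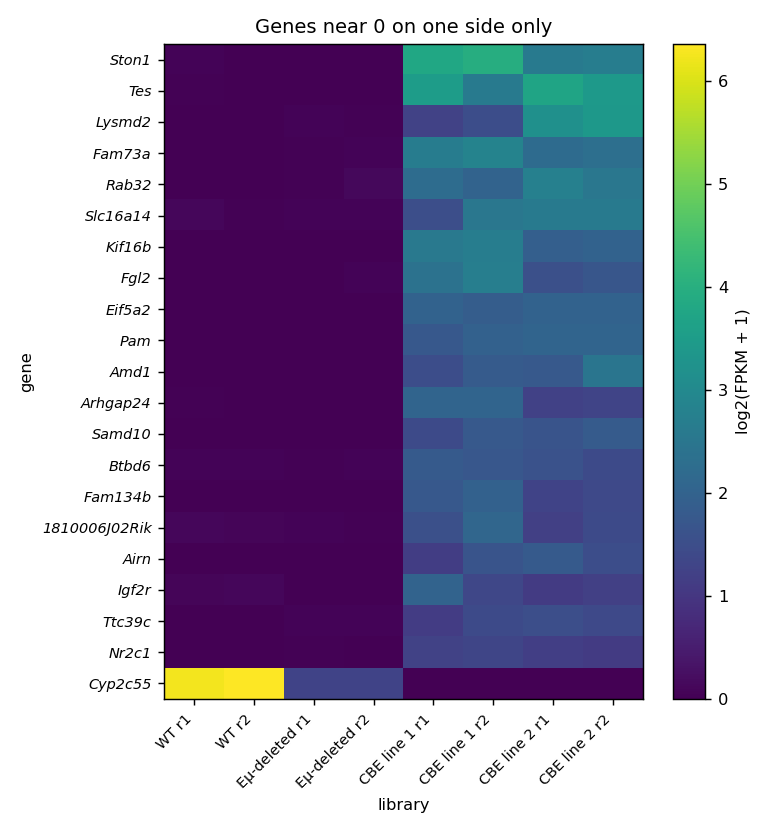
Rows are 21 of the 22 genes under 0.1 FPKM on 1 side and at 1 FPKM or more on the other, columns are the 8 libraries, and colour is log2(FPKM + 1). In 20 rows the 4 CBE libraries are brighter than the 4 others, and in the Cyp2c55 row the WT libraries are brightest, at 74.9 and 81.2 FPKM.

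Among the 12 higher genes with the widest gaps, several were low but not silent in the other lines. Smim24, a small membrane protein, was at 0.0296 and 0.0465 FPKM in WT, 0.0451 and 0.237 in the Eµ-deleted line, 17.3 and 19.0 in CBE line 1, and 10.9 and 10.7 for CBE line 2. Every CBE library exceeded 10 FPKM and no other reached 0.3 (log2 difference 3.79 ± 0.079, limma joint adjusted p = 0.000119). Pla2g7, the secreted phospholipase that degrades platelet-activating factor, was at 1.65 and 0.910 FPKM in WT, 1.91 and 2.41 in the Eµ-deleted line, 30.6 and 36.9 in CBE line 1, and 28.5 and 34.6 for CBE line 2. The lines within each side lay close together (log2 difference 3.65 ± 0.14, limma joint adjusted p = 0.000669).

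Aldh1a7, an aldehyde dehydrogenase, was at 16.0 to 38.9 FPKM in the CBE libraries against 0.200 to 2.06 in the others, with WT above the Eµ-deleted line (log2 difference 3.66 ± 0.20). Its limma joint adjusted p of 0.00741 became 0.0721 at most and lost the threshold without CBE line 2 replicate 1 or either WT library. Tmem119, a transmembrane protein best known as a microglia marker, was at 2.94 and 1.59 FPKM in WT, 9.45 and 8.83 in the Eµ-deleted line, 43.1 and 102 in CBE line 1, and 50.3 and 66.3 for CBE line 2. Fcrl6, a receptor of the Fc receptor-like family, was at 3.64 and 2.05 FPKM in WT, 4.83 and 6.68 in the Eµ-deleted line, 63.2 and 28.4 in CBE line 1, and 56.5 and 42.3 for CBE line 2. Both genes differed strongly between libraries of a line, and the gaps between the sides were 2.08 and 1.93 on log2(FPKM + 1). Their limma joint adjusted p-values of 0.0470 and 0.0349 held in 1 of 8 leave-outs each, the removal of CBE line 1 replicate 1 for Tmem119 and of CBE line 1 replicate 2 for Fcrl6, with values up to 0.365 and 0.222 in the rest.

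The lower genes were led by Gdpd3, a phosphodiesterase that releases lysophosphatidic acid from lysophospholipids. Gdpd3 was at 81.0 and 85.6 FPKM in WT, 47.7 and 68.7 in the Eµ-deleted line, 0.122 and 0.130 in CBE line 1, and 0.123 and 0.0945 for CBE line 2 (mm9 chromosome 7, 133909927 to 133919159). The 2 CBE lines overlapped each other, and the gap was the widest of the 1029 tested genes kept (log2 difference -5.97 ± 0.12, limma joint adjusted p = 0.000101). Cyp2c55, a cytochrome P450 that oxidizes arachidonic acid, was listed at 74.9 and 81.2 FPKM in WT, 1.43 and 1.41 in the Eµ-deleted line, 0 and 0 in CBE line 1, and 0 and 0 for CBE line 2. It was at 0 in every CBE library, low in the Eµ-deleted line and high in WT, and its limma joint adjusted p of 0.00135 became 0.0636 with a pseudocount of 5.

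Mc1r, Smo and Celsr1 were also among the lower genes. Mc1r, the melanocortin receptor of pigment cells, was at 48.6 and 57.5 FPKM in WT, 17.2 and 22.5 in the Eµ-deleted line, 0.0918 and 0.396 in CBE line 1, and 0.575 and 1.09 for CBE line 2. WT lay above the Eµ-deleted line and both above every CBE library (log2 difference -4.48 ± 0.15, limma joint adjusted p = 0.000680). Smo, the Hedgehog signal transducer Smoothened, was at 16.4 and 15.9 FPKM in WT, 12.2 and 9.41 in the Eµ-deleted line, 3.08 and 2.96 in CBE line 1, and 1.08 and 0.980 for CBE line 2. No 2 lines overlapped, and CBE line 2 was lowest (log2 difference -2.31 ± 0.091, limma joint adjusted p = 0.00322). Celsr1, a cadherin of planar cell polarity, was at 1.18 to 2.06 FPKM in the CBE libraries against 5.40 to 9.94 in the others (log2 difference -1.67 ± 0.068, limma joint adjusted p = 0.00375), and this call was lost without CBE line 2 replicate 1 or WT replicate 1, with values up to 0.0583.

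Lmo7, a LIM and PDZ domain protein of cell junctions, was at 0.164 to 0.904 FPKM in the CBE libraries against 5.07 to 15.7 in the others (log2 difference -2.69 ± 0.091). Spinkl, a Kazal-type protease inhibitor, was at 0.0419 to 1.12 FPKM in the CBE libraries against 9.35 to 16.5 in the others (log2 difference -3.34 ± 0.13), and Fam195a at 2.60 to 7.07 FPKM in the CBE libraries against 17.4 to 24.1 in the others (log2 difference -1.94 ± 0.065). The limma joint adjusted p-values of these 3 genes were 0.00178, 0.00167 and 0.00238, and their calls held in all 8 leave-outs. Ppp2r5b, a regulatory subunit of protein phosphatase 2A, was at 2.89 to 4.34 FPKM in the CBE libraries against 10.2 to 12.4 in the others, and its limma joint adjusted p of 0.00823 became 0.0877 at most and was lost without either WT library. Prss57, a serine protease of neutrophil granules, was at 2.91 to 4.40 FPKM in the CBE libraries against 9.84 to 16.9 in the others, and its limma joint adjusted p of 0.0206 held only without WT replicate 1 or WT replicate 2, with values up to 0.130.

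The remaining 2 of the 12 lower genes with the widest gaps were not called. Zbtb32, a BTB zinc finger repressor, was at 13.5 and 11.1 FPKM in WT, 20.4 and 8.18 in the Eµ-deleted line, 0.0758 and 0.119 in CBE line 1, and 3.38 and 1.87 for CBE line 2 (limma joint adjusted p = 0.138, or 0.0426 with a replicate block). Gsn, the actin-severing protein gelsolin, was at 6.86 and 3.58 FPKM in WT, 70.1 and 20.0 in the Eµ-deleted line, 0.636 and 0.695 in CBE line 1, and 1.29 and 1.13 for CBE line 2 (limma joint adjusted p = 0.977). CBE line 1 was far below CBE line 2 for Zbtb32, and the Eµ-deleted libraries of Gsn were 70.1 and 20.0 FPKM. The gap is taken from the values the joint test uses, so that 22 of the 24 genes were called is a description. Of the 22, 15 were called in every leave-out and 14 of those under every other alternative tried.

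**Figure D3:**
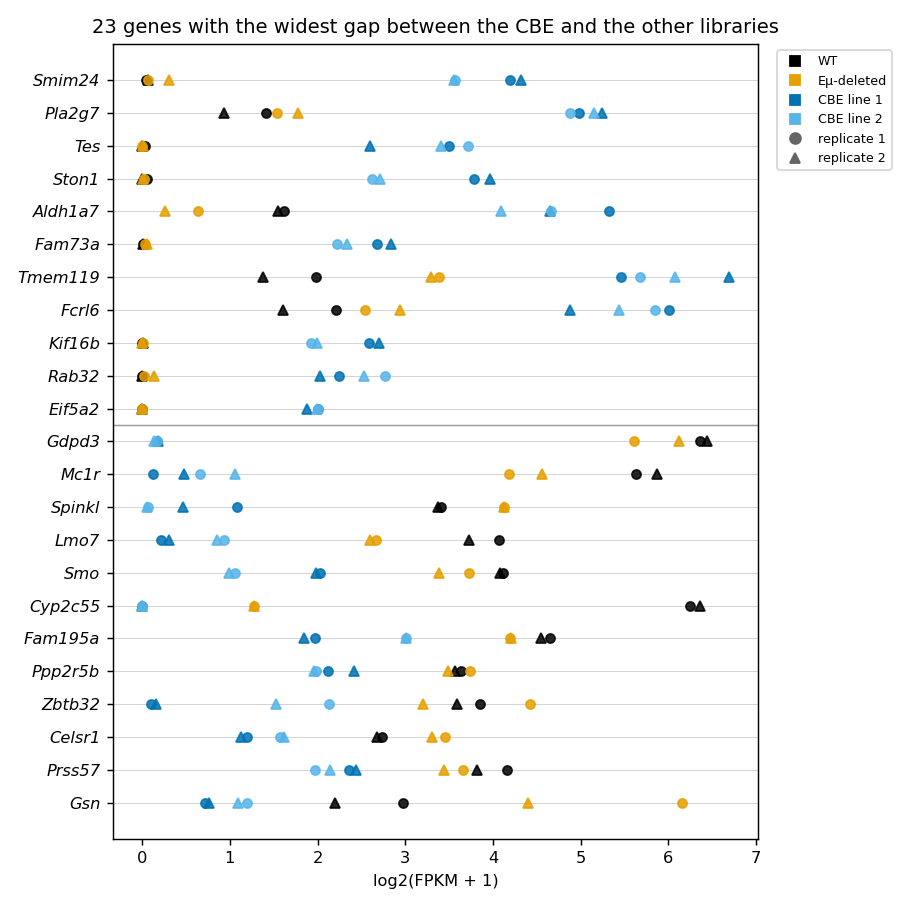
Rows are 11 of the 12 higher and the 12 lower kept genes with the widest gaps, unnamed transcript models passed over, the x axis is log2(FPKM + 1), and each marker is 1 library coloured by line with its replicate as the shape. In every row the blue CBE markers are separated from the black WT and orange Eµ-deleted markers, most widely for Gdpd3.

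Gene lists of B lineage, recombination and signalling functions were read next. Of 507 list genes tested, 54 were kept (10.7%), against 10.1% of all genes tested. The joint test called 7 of them, where it called 0.966% of all genes tested. Of 35 early B lineage transcription factors, 4 were kept as higher (Hhex, Pou2af1, Mef2c and Id3) and 1 as lower (Myb), 14.3% of the list. The limma joint test called 0 of them, with 2 at an unadjusted p under 0.05. Hhex, a homeobox factor of early progenitors, was at 0.0211 and 0.0110 FPKM in WT, 0.664 and 0.856 in the Eµ-deleted line, 7.40 and 13.9 in CBE line 1, and 2.56 and 1.58 for CBE line 2. CBE line 1 was the highest by far, and CBE line 2 lay closest to the Eµ-deleted line (limma joint adjusted p = 0.871). Pou2af1, the coactivator OBF-1 of octamer-binding factors, was at 496 to 661 FPKM in the CBE libraries against 323 to 457 in the others. Myb, a regulator of progenitor growth, was at 60.0 to 82.4 FPKM in the CBE libraries against 109 to 139 in the others. Neither passed the limma joint test (adjusted p = 1 and 0.643).

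Core pro-B regulators overlapped between the sides. Pax5, which holds B cell commitment, was at 41.3 to 62.5 FPKM in the CBE libraries against 38.3 to 65.8 in the others, and Ebf1, its upstream partner, at 37.7 to 48.6 FPKM in the CBE libraries against 36.9 to 64.5 in the others. Il7r, the receptor for the main pro-B growth factor, was at 27.9 to 71.2 FPKM in the CBE libraries against 28.8 to 58.0 in the others. All 3 had limma joint adjusted p-values of 1. Of 29 surface and signalling genes of pro-B and pre-B cells, 2 were kept as higher (Cd38 and Ly6d) and 1 as lower (Cd72). This was 10.3%, against 10.1% of all genes tested. The limma joint test called 0 of the list, with 2 at an unadjusted p under 0.05. Cd38, an ectoenzyme that consumes NAD, was at 14.3 and 14.6 FPKM in WT, 15.3 and 20.5 in the Eµ-deleted line, 31.3 and 54.8 in CBE line 1, and 32.2 and 40.4 for CBE line 2. CBE line 1 replicate 2 was the highest, and the sides did not overlap (log2 difference 1.22 ± 0.19, limma joint adjusted p = 0.405).

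The lists of recombination and looping genes had 7.14% and 3.85% of their tested genes kept, against 10.1% of all genes tested. Of 28 genes for V(D)J recombination and end joining, Nhej1, which encodes XLF, was kept as higher at 4.65 to 4.93 FPKM in the CBE libraries against 3.72 to 4.32 in the others, and Mre11a, a nuclease at breaks, as lower at 18.9 to 23.9 FPKM in the CBE libraries against 24 to 26.6 in the others, and the limma joint test called 0 of the list, with 0 at an unadjusted p under 0.05. Rag2 was at 0.0207 and 0.00543 FPKM in WT, 3.96 and 5.38 in the Eµ-deleted line, 2.27 and 1.93 in CBE line 1, and 3.07 and 1.98 for CBE line 2. Rag1 and Rag2 were near 0 in WT and at 1.93 FPKM or more in each library of the other 3 lines, so neither was kept. Ctcf, whose protein binds the elements the CBE lines are named for, was at 64.4 to 85.1 FPKM in the CBE libraries against 58.9 to 82.9 in the others (log2 difference 0.04 ± 0.10, limma joint adjusted p = 1). Of 26 CTCF, cohesin and looping genes, only Satb1, a chromatin organizer, was kept, at 0.00924 and 0.0203 FPKM in WT, 0.702 and 1.88 in the Eµ-deleted line, 2.26 and 3.04 in CBE line 1, and 4.86 and 5.04 for CBE line 2. It was lowest in WT, intermediate in the Eµ-deleted line and highest in the CBE lines (limma joint adjusted p = 0.766).

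Of 15 lipid mediator genes tested, 6 were kept (40.0%, against 10.1% of all genes tested), 3 higher and 3 lower. The higher ones were Pla2g7, Cyp4f18, which inactivates leukotriene B4, and Ptger4, a prostaglandin E2 receptor, and the lower ones Gdpd3, Cyp2c55 and Faah, which hydrolyses anandamide. Pla2g7, Gdpd3 and Cyp2c55 were called by the limma joint test, which called 0.966% of all genes tested. With TPM scaling, 1 higher and 3 lower members were kept. This list was written with earlier results on these libraries known, so its share is a description only.

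Of 25 glycolysis and hypoxia genes, 5 were kept as higher and 1 as lower (24.0%, against 10.1% of all genes tested). The limma joint test called 0 of them, with 3 at an unadjusted p under 0.05, and the list's median log2 difference was 0.22. Hk1, which phosphorylates glucose, was at 9.08 and 6.74 FPKM in WT, 8.14 and 6.46 in the Eµ-deleted line, 20.7 and 15.6 in CBE line 1, and 20.3 and 18.1 for CBE line 2. All CBE libraries lay above 15 FPKM and all others under 10 (log2 difference 1.20 ± 0.14, limma joint adjusted p = 0.0726, or 0.00426 with a replicate block). Slc2a1, the glucose transporter GLUT1, was at 20.4 to 27.7 FPKM in the CBE libraries against 14.0 to 17.6 in the others, and Ankrd37, a hypoxia-inducible gene, at 6.01 to 18.1 FPKM in the CBE libraries against 0.982 to 3.95 in the others. P4ha1 and Egln3 were also kept as higher, and Pfkp, the platelet-type phosphofructokinase, as lower.

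Of 35 cytoskeleton and small GTPase genes, 3 were kept as higher and 2 as lower. Vav3, an exchange factor for small GTPases, was at 0.317 and 0.0921 FPKM in WT, 0.250 and 0.476 in the Eµ-deleted line, 2.54 and 2.96 in CBE line 1, and 6.47 and 7.85 for CBE line 2. CBE line 2 had the highest level (log2 difference 2.11 ± 0.11), and the limma joint adjusted p of 0.00833 became 0.0590 at most and was lost without CBE line 1 replicate 2 or Eµ-deleted replicate 1. Rac1, a small GTPase of actin remodelling, was at 144 to 147 FPKM in the CBE libraries against 105 to 128 in the others. Of 27 Notch, Wnt and TGF-beta genes, 4 were kept as higher and 1 as lower. Axin2, a feedback inhibitor and common readout of Wnt signalling, was at 0.00816 and 0.00427 FPKM in WT, 0.327 and 0.331 in the Eµ-deleted line, 1.46 and 1.64 in CBE line 1, and 2.29 and 2.30 for CBE line 2. It was lowest in WT and highest in CBE line 2, and its call held in all 8 leave-outs (log2 difference 1.32 ± 0.059, limma joint adjusted p = 0.00430). Notch2 was at 0.753 to 1.11 FPKM in the CBE libraries against 0.257 to 0.344 in the others, and Dtx4, a lower gene that encodes a Deltex ubiquitin ligase, at 0.804 to 3.16 FPKM in the CBE libraries against 4.05 to 13.9 in the others, both with no call.

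Of 27 interferon response genes, 4 were kept as higher (Igtp, Irgm2, Zbp1 and Gbp2) and 1 as lower (18.5%, against 10.1% of all genes tested). The limma joint test called 1 of the 27, the lower gene, where it called 0.966% of all genes tested. The lower gene, Oas1a, which senses double-stranded RNA, was at 3.15 and 2.81 FPKM in WT, 1.31 and 0.918 in the Eµ-deleted line, 0.0471 and 0.0390 in CBE line 1, and 0.0264 and 0.0631 for CBE line 2. All CBE libraries were under 0.1 FPKM, and the limma joint adjusted p of 0.0122 was lost without any 1 of the 4 CBE libraries, with values up to 0.118. Igtp, an interferon-inducible GTPase, was at 10.5 to 20.1 FPKM in the CBE libraries against 5.98 to 7.41 in the others, with CBE line 1 above CBE line 2. Of 24 adhesion and migration genes, 3 were kept as higher (Ctnna1, Itgam and Itga6) and 2 as lower (Gpr132 and S1pr2). This was 20.8%, against 10.1% of all genes tested. The limma joint test called 0 of the list, with 3 at an unadjusted p under 0.05. Ctnna1, the catenin that ties cadherins to actin, was at 0.0190 and 0.0199 FPKM in WT, 14.2 and 14.8 in the Eµ-deleted line, 39.2 and 35.6 in CBE line 1, and 24 and 20.2 for CBE line 2.

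Of 16 later B cell and antigen presentation genes, 1 was kept, as lower (6.25%, against 10.1% of all genes tested). This gene, Xbp1, the transcription factor of the secretory programme, was at 109 and 101 FPKM in WT, 49.3 and 60.2 in the Eµ-deleted line, 32.1 and 37.7 in CBE line 1, and 17.8 and 18.0 for CBE line 2. The CBE lines were lowest and WT highest (log2 difference -1.56 ± 0.092, limma joint adjusted p = 0.136). Of 24 integrated stress and amino acid genes, Psat1 of serine synthesis, at 100.1 to 201 FPKM in the CBE libraries against 232 to 361 in the others, and Aldh18a1 of proline synthesis, at 38.1 to 88.8 FPKM in the CBE libraries against 99.2 to 137 in the others, were kept as lower (8.33% of the list), and the list's median log2 difference was -0.46. The list of 19 p53 targets had a median of -0.32 with 0 genes kept, and no member of either list passed the limma joint test at an unadjusted p under 0.05. In the lists of 35 chromatin writers and erasers, 13 CDK inhibitors and tumour suppressors and 14 housekeeping genes, 0 genes were kept and 0 passed the limma joint test even at an unadjusted p under 0.05. The limma mean contrast called 4, 3 and 0 of them.

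Other lists had 2 kept members at most, where 10.1% of all genes tested were kept. Ccne1, cyclin E1, was the 1 kept of 33 proliferation genes, at 24 to 32.0 FPKM in the CBE libraries against 17.3 to 18.9 in the others, and Bok the 1 kept of 15 BCL2 family genes. Il3ra, an interleukin-3 receptor chain, was the 1 kept of 24 STAT5 and JAK genes, at 13.6 to 19.2 FPKM in the CBE libraries against 10.4 to 13.1 in the others, and Sc5d the 1 kept of 18 cholesterol synthesis genes, at 15.9 to 20.4 FPKM in the CBE libraries against 13.1 to 15.0 in the others. Nfkb2 and Rela, subunits of NF-kB, were the 2 kept of 29 NF-kB and immediate early genes, both lower, at 6.75 to 8.20 FPKM in the CBE libraries against 8.97 to 16.1 in the others for Nfkb2. Lat, an adaptor of antigen receptor signalling also present in early B cells, was the 1 kept of 7 T lineage genes tested, lower at 106 to 127 FPKM in the CBE libraries against 151 to 272 in the others. Itgam was the 1 kept of 4 myeloid genes tested, at 1.17 to 1.66 FPKM in the CBE libraries against 0.120 to 0.616 in the others, and Klrd1 the 1 kept of 2 NK genes tested, at 0.539 to 2.22 FPKM in the CBE libraries against 0.0665 to 0.320 in the others. Of 2 erythroid genes tested 0 were kept, and 0 stromal genes were tested. The limma joint test called none of the genes of these 10 lists, with 5 at an unadjusted p under 0.05 in all.

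Kept genes also had neighbours. Position was not used by the rule, and 11 runs of 3 or more consecutive tested genes were kept in 1 direction, 8 higher and 3 lower, with 50 genes in all. The longest had 12 genes on mm9 chromosome 1, from Sned1 to D2hgdh (95132473 to 95748751, 616 kb), all higher in the CBE lines. Over a wider stretch from Ndufa10 to D2hgdh (94336295 to 95748751, 1412 kb), 16 of 18 tested genes were kept as higher, all except Otos and Capn10. Both ends of this stretch were set at kept genes, so its count is a description. Of the 10 tested genes before Sned1, 4 were kept as higher, all within the wider stretch, and 0 as lower. Of the 10 after D2hgdh, 3 were kept as higher and 0 as lower. Over all genes tested, 5.91% were kept as higher.

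Within the run, the mean FPKM of the CBE libraries divided by that of the others was 1.29 to 7.85 with a median of 1.60, and 1.90 at most without Bok and Sned1. Bok, a BCL2 family member that can promote cell death, was at 0.278 and 0.211 FPKM in WT, 9.60 and 4.17 in the Eµ-deleted line, 31.1 and 21.8 in CBE line 1, and 31.2 and 27.7 for CBE line 2. The Eµ-deleted line lay between WT and the CBE lines (log2 difference 3.24 ± 0.23, limma joint adjusted p = 0.0752, or 0.0185 with a replicate block). Ppp1r7, a regulatory subunit of protein phosphatase 1, was at 20.3 and 20.3 FPKM in WT, 21.2 and 17.0 in the Eµ-deleted line, 34.9 and 38.3 in CBE line 1, and 38.8 and 37.8 for CBE line 2. Hdlbp, the RNA-binding protein vigilin, was at 62.0 to 71.8 FPKM in the CBE libraries against 32.1 to 39.6 in the others, and Dtymk, thymidylate kinase, at 228 to 244 FPKM in the CBE libraries against 149 to 183 in the others.

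The run consists of genes the rule had kept, so calls from the same values are a description. The limma mean contrast, which called 71.7% of all tested genes kept, called all 12, and the joint test called Mterfd2 and Ppp1r7 (adjusted p = 0.0400 and 0.0350). The call of Mterfd2 was lost in all 8 leave-outs, with values up to 0.357, and that of Ppp1r7 held only without Eµ-deleted replicate 1, with values up to 0.270 otherwise. With a replicate block, Sned1 and Hdlbp were called too (adjusted p = 0.00816 and 0.00661, limma). Between the CBE lines limma called 0 genes of the run, with 3 at an unadjusted p under 0.05, and 2 were called between the Eµ-deleted line and WT, Bok and Ing5. The median log2 difference of the run was 0.66 and 0.76 for CBE line 1 and 2 against WT, and 0.54 and 0.70 against the Eµ-deleted line. Sept2, which lies inside the run, was left out because its quantification failed in at least 1 library, and was listed at 94.9 to 106 FPKM in the CBE libraries and 54.1 to 62.9 in the others.

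**Figure D4:**
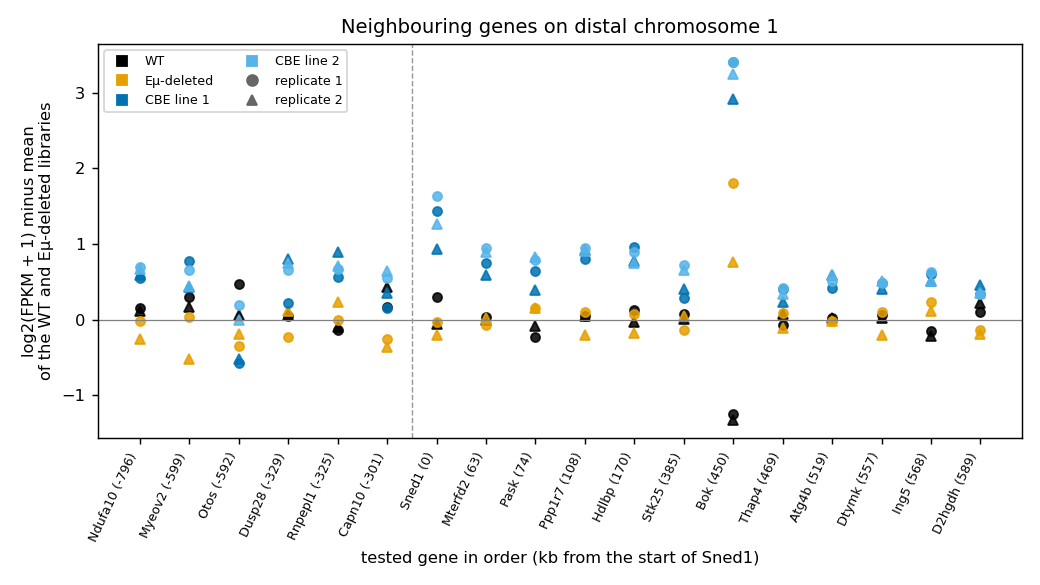
The x axis gives 18 tested genes in order along chromosome 1, from Ndufa10 to D2hgdh, with their distance in kb from the start of Sned1. The y axis gives each library's log2(FPKM + 1) minus the mean of the WT and Eµ-deleted libraries. Right of the dashed line, in the 12 genes of the run, the blue CBE markers lie above the black WT and orange Eµ-deleted markers, with the largest spread for Bok.

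A run of 10 genes on mm9 chromosome 12 (88790859 to 91976878, 3186 kb) held 7 transcript models with related sequences, between Snw1 and Adck1. Gm5662 had the highest level of the 7, 13.3 and 6.19 FPKM in WT, 6.62 and 8.07 in the Eµ-deleted line, 161 and 107 in CBE line 1, and 79.2 and 68.2 for CBE line 2. Gm8300 was at 9.49 to 22.9 FPKM in the CBE libraries against 0.913 to 1.91 in the others, and Gm2016 at 60.4 to 152 FPKM in the CBE libraries against 5.80 to 12.9 in the others. CBE line 1 lay above CBE line 2 in each of the 3, and both lay above the other lines. This run too consists of genes the rule had kept, so calls from the same values are a description. The joint test called 6 of its 10 genes (limma, adjusted p = 0.00780 to 0.0352), where it called 0.966% of all genes tested. All 6 are among the related transcript models, and their calls were lost without any 1 of the Eµ-deleted or CBE line 2 libraries.

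Reads of this family cannot be assigned to single copies with certainty, so the 6 calls need not be separate results. In the GRCm38 transcripts, 92.9% of the 75-base windows of Gm4027, the read length of the libraries, occurred in another member, as did 71.9% of those of Gm2016 and 64.9% of those of Gm5662, but 13.4% of those of Gm8300 and 7.07% of those of Gm5039. A further member at 2 loci, BB287469, was at 1.27 and 0.763 FPKM in WT, 0.695 and 0.714 in the Eµ-deleted line, 8.14 and 6.76 in CBE line 1, and 4.11 and 3.80 for CBE line 2. To show how alike the copies are, the 250 bases before the RefSeq start sites of Gm4027 (chr12:87618659-87618908, plus strand) and BB287469 (chr12:87816327-87816576, plus strand) follow, from GRCm38.p6, 5′ to 3′, with the letters TATATATA in capitals.
Gm4027: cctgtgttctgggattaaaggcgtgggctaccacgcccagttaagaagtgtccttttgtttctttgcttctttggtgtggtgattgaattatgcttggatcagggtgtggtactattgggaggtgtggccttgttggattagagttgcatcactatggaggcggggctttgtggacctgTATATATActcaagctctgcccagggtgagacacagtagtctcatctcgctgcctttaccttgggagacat
BB287469: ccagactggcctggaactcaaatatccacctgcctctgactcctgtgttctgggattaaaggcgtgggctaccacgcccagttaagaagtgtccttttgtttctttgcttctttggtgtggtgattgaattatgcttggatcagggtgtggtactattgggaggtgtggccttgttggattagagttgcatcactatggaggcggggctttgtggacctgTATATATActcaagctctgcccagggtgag
Each window held TATATATA once, searched on both strands, where the word reads the same, and 0.737% of all 32851 windows held it.

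The share of tested genes kept varied between chromosomes, from 5.88% on chromosome 18 to 12.8% on chromosome 6. Chromosome 1 had 57 higher and 16 lower of 594 tested genes, and chromosome 12 had 35 and 11 of 380. The 57 include the 16 genes kept as higher from Ndufa10 to D2hgdh. The 35 include the related transcript models, BB287469 among them, whose reads cannot be assigned to single copies with certainty. Chromosome 19 had the opposite balance, with 7 higher and 42 lower of 385. Its median log2 difference over all tested genes was -0.41 and -0.39 for CBE line 1 and 2 against WT, but -0.01 and 0.01 against the Eµ-deleted line, which itself had a median of -0.41 against WT. By these medians WT stood apart from the other 3 lines on chromosome 19, while the 42 kept genes lay below both WT and the Eµ-deleted line.

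**Figure D5:**
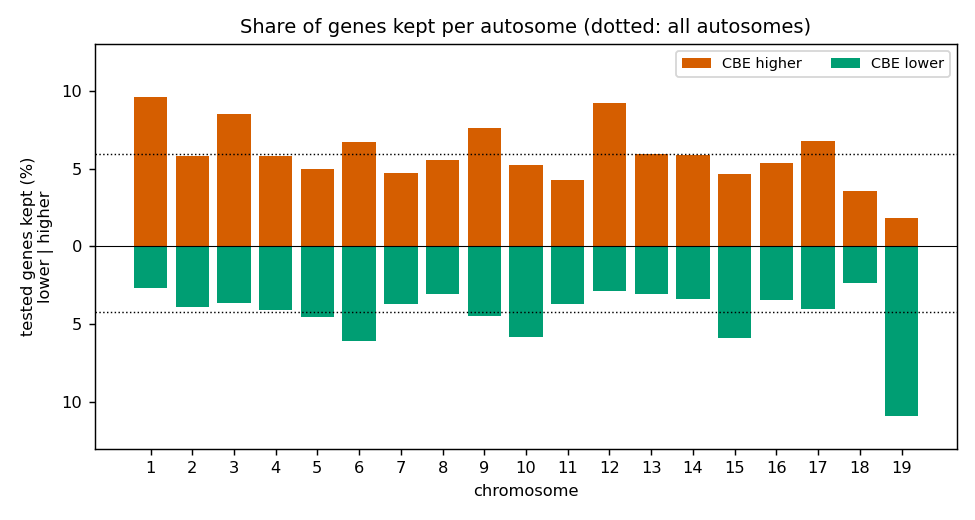
Bars give the percent of tested genes kept on each autosome (x axis), higher genes upward in orange and lower genes downward in green, with dotted lines at the shares over all autosomes, 5.91% and 4.23%. Chromosomes 1 and 12 have the tallest bars upward, 9.60% and 9.21%, and chromosome 19 the tallest downward, 10.9%.

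Within 2 Mb of the Adam6 genes, which lie in the IgH locus near IGCR1 (mm9 chromosome 12, 112727775 to 116784625), 3 of 31 tested genes were kept (9.68%), near the share over all genes. Btbd6, a BTB domain adaptor of ubiquitin ligases, was at 0.0433 and 0.0486 FPKM in WT, 0.0188 and 0.0496 in the Eµ-deleted line, 2.50 and 2.32 in CBE line 1, and 2.06 and 1.69 for CBE line 2 (mm9 chromosome 12, 114214692 to 114217151). All CBE libraries were above 1.6 FPKM and all others under 0.05, and the call held in all 8 leave-outs (log2 difference 1.59 ± 0.069, limma joint adjusted p = 0.00112). Crip2, a LIM domain protein, was at 0.535 and 0.672 FPKM in WT, 1.10 and 0.900 in the Eµ-deleted line, 3.72 and 4.34 in CBE line 1, and 2.72 and 2.92 for CBE line 2. The Eµ-deleted line lay above WT and below both CBE lines (log2 difference 1.29 ± 0.078), and the limma joint adjusted p of 0.0149 was lost without any 1 library of WT, the Eµ-deleted line or CBE line 2, with values up to 0.135. Gpr132, a receptor for lysophospholipids and acid, was lower, at 1.58 and 1.25 FPKM in WT, 5.39 and 5.47 in the Eµ-deleted line, 0.0592 and 0.0588 in CBE line 1, and 0.588 and 0.578 for CBE line 2 (limma joint adjusted p = 0.0531).

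The rule fixes the sides but not how the lines on 1 side compare. CBE line 2 differed from CBE line 1 in 158 of the 1029 kept genes (15.4%), against 10.2% of all genes tested (limma, adjusted p under 0.05). Of the genes kept as higher, 63 were higher and 53 lower in CBE line 2, and of those kept as lower, 15 and 27, where 5.16% and 5% of all genes tested were higher and lower. Without a CBE line 2 library the 158 became 64 to 73. Hhex had a CBE line 2 minus CBE line 1 difference of -1.89 (adjusted p = 0.00759, limma). Vav3 had one of 1.12 (adjusted p = 0.00534, limma).

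The Eµ-deleted line differed from WT in 214 of the kept genes (20.8%), against 21.8% of all genes tested, so the kept genes were close to the background in this respect (limma). Among genes kept as higher, 78 were above and 35 below WT in the Eµ-deleted line, and among those kept as lower, 25 and 76, where the shares of all genes tested were 11.3% and 10.5%. Bok, Ctnna1 and Axin2 are examples of the first kind, with Eµ-deleted minus WT differences of 2.57, 3.93 and 0.40 (adjusted p = 0.00241, 3.55e-06 and 0.0176, limma), and Cyp2c55 of the last kind, with -5.03 (adjusted p = 1.53e-06, limma). Without WT replicate 1, WT replicate 2 or with a mean of 5 FPKM required, the 214 became 120, 107 and 106.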

How the data were processed

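The deposited files give FPKM per gene with an interval and a quantification status, per the file headers. TopHat and Cufflinks, with mm9 as the build, are named by the submitters' processing notes. Their versions, settings and use of strand were not given in the sources at hand. Each library had 24459 entries under 23929 symbols. FPKM of 277 symbols at several loci were summed, and 21 were left out because at least 1 library had a failed status for them.

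Genes with 1 FPKM or more in at least 2 of 8 libraries (10479) were fitted with limma 3.58.1 (R 4.3.3) on log2(FPKM + 1), with 1 mean per line and a spread shared by all lines (4 residual and 2.65 prior degrees of freedom). On simulated data the joint test recovered 0, 39.4 and 81.8% of shared log2 changes of 0.5, 1 and 2. These were planted in genes with a mean above 2 on log2(FPKM + 1), so recovery for genes near 0 was not measured. There were 0 false calls among genes simulated without any difference between lines. In the real data 21.8% of genes were called between the Eµ-deleted line and WT, so the simulation does not give the rate of false calls there. Replicate numbers paired the libraries: deviations of same-numbered libraries correlated at 0.279 to 0.502 in all 6 pairs of lines.

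Named genes were the 12 per direction with the widest gap, passing over unnamed transcript models, up to 3 kept members of each of 26 lists, kept genes near Adam6, 6 regulators given always, runs of 3 or more neighbours, and 3 genes on each side of the rule's edge. 1 gene that the rule names stays in the counts and is not reported here. Genes were compared across alternatives for scaling, filter, pseudocount, model and each library. The members and lists were chosen with earlier results of these data known. Promoter and transcript sequences come from GRCm38 by symbol, and mm9 coordinates were not converted.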

Additional observations from a re-analysis of the deposited data

Results flagged for a closer look

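The rule requires both CBE lines to lie on the same side of the other lines, and 10 of the 24 genes with the widest gaps nevertheless differed between the 2 CBE lines (limma, CBE line 2 minus CBE line 1 on log2(FPKM + 1), adjusted over all genes tested), where 10.2% of all genes tested and 15.4% of those kept were called. Among the higher genes, Ston1 differed by -1.21 (adjusted p = 0.000679), Smim24 by -0.70 (adjusted p = 0.0108), Kif16b by -0.68 (adjusted p = 0.00453) and Fam73a by -0.49 (adjusted p = 0.0251), all lower in CBE line 2. Rab32 was higher in CBE line 2, by 0.51 (adjusted p = 0.0478). Of the lower genes, Smo was lower in CBE line 2 as well, by -0.98 (adjusted p = 0.00476). Lmo7 was higher there by 0.63 (adjusted p = 0.0260), Fam195a by 1.10 (adjusted p = 0.000735), Celsr1 by 0.43 (adjusted p = 0.0364) and Zbtb32 by 1.69 (adjusted p = 0.0405). In each of these 10 genes the 2 libraries of CBE line 1 did not overlap the 2 of CBE line 2. Over all kept genes, the 158 such calls became 64 to 73 without a CBE line 2 library.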

How the results depend on the processing

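Of 142 recomputed counts, 107 stayed within 1.5 times their value. The 12 genes of the chromosome 1 run were kept in every leave-out, which the rule fixes, since dropping a library cannot close a gap. They were also kept under every scaling, and 11 of them with a mean of 5 FPKM required. That filter left 374 genes kept as higher, 20 higher and 11 lower joint calls, 736 calls of the mean contrast, and 45 and 106 calls between the CBE lines and between the Eµ-deleted line and WT. Without a filter there were 41 higher and 12 lower joint calls. Lower joint calls were 36 with a pseudocount of 0.1, 36 with quantile normalization and 34 with the replicate block, which gave 2600 calls of the mean contrast and changed no call of a named gene other than the 6 that gained one. With lines as replicates the mean contrast called 0. Leaving out 1 library at a time gave 643 to 1018 genes kept as higher and 487 to 762 as lower, all above the full counts, since fewer libraries must be separated. It gave 34 to 68 higher and 9 to 18 lower joint calls, 933 to 2194 calls of the mean contrast, 64 to 168 between the CBE lines and 107 to 251 between the Eµ-deleted line and WT. The cause was not tested. Only Ctcf and Il7r, neither called, changed sign: Ctcf ranged from -0.063 (CBE line 1 replicate 1 left out) to 0.13, and was -0.01 when CBE line 2 replicate 1 was left out, and Il7r ranged from -0.43 to 0.16 (CBE line 1 replicate 2 left out), and was 0.0014 when CBE line 2 replicate 2 was left out. Of 2236 values for named genes, 2082 kept direction and side of the threshold, 124 lost the call and 26 gained it. Genes near 0 FPKM are known only to a few reads, so their differences are limited by depth.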

Other observations

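The following genes called by the joint test were picked after their values were seen. Eci1 and Decr1 both encode mitochondrial enzymes that prepare unsaturated fatty acids for beta-oxidation. Eci1 was at 2.11 and 1.89 FPKM in WT, 0 and 0.0398 in the Eµ-deleted line, 5.22 and 6.51 in CBE line 1, and 11.5 and 13.4 for CBE line 2, and Decr1 at 3.41 and 3.29 FPKM in WT, 3.60 and 3.60 in the Eµ-deleted line, 7.92 and 10.5 in CBE line 1, and 8.26 and 8.67 for CBE line 2. Both were higher in every CBE library than in any other (limma joint adjusted p = 0.0103 and 0.0197). Eci1 lost its call without either WT library, with values up to 0.108, and Decr1 without any library of WT, the Eµ-deleted line or CBE line 2, with values up to 0.194.

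Lrp12 and Lrp4 were called in opposite directions, and other genes with related names were not examined as a family. Lrp12 was at 0.103 and 0.0942 FPKM in WT, 0 and 0.00915 in the Eµ-deleted line, 2.82 and 2.74 in CBE line 1, and 2.71 and 2.64 for CBE line 2 (log2 difference 1.83 ± 0.057, limma joint adjusted p = 0.000235). Lrp4, a receptor known from the neuromuscular junction and Wnt inhibition, was at 1.34 and 1.25 FPKM in WT, 1.53 and 1.32 in the Eµ-deleted line, 0.00604 and 0.00617 in CBE line 1, and 0.122 and 0.146 for CBE line 2 (log2 difference -1.14 ± 0.062, limma joint adjusted p = 0.00375). The sides were separated in both genes, and both calls held in all 8 leave-outs.

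Fstl1 and Golm1 were called as higher. Fstl1, a secreted glycoprotein, was at 0.0194 and 0.0152 FPKM in WT, 2.52 and 2.43 in the Eµ-deleted line, 10.7 and 11.3 in CBE line 1, and 15.5 and 14.7 for CBE line 2, and Golm1, a Golgi membrane protein, at 1.74 and 1.67 FPKM in WT, 1.01 and 0.869 in the Eµ-deleted line, 9.73 and 8.82 in CBE line 1, and 10.1 and 10.9 for CBE line 2. Their calls held in all 8 leave-outs (limma joint adjusted p = 0.000339 and 0.000355). The unnamed transcript 1700048O20Rik, in a run of 3 neighbours on mm9 chromosome 9, had the largest log2 difference of the higher calls (4.29 ± 0.094, limma joint adjusted p = 0.000147) and was at 0.436 and 0.305 FPKM in WT, 0.265 and 0.451 in the Eµ-deleted line, 43.8 and 52.3 in CBE line 1, and 12.7 and 14.2 for CBE line 2. CBE line 1 was the highest and CBE line 2 second.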
